A study of Mus musculus with 18 samples.

Results

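The 10 genes described here encode an enzyme that activates fatty acids, transferases that pass them to and from carnitine, and enzymes that break them down by beta-oxidation. They are Acsf2, Cpt1a, Cpt2, Acadm, Acadl, Acadvl, Hadha, Hadhb, Eci1 and Eci2, found by gene name among the 32285 genes of the count table. The set was chosen by the counts of Acsf2 and Eci2, high and nearly absent in cells with BRD9-NUTM1 on day 6, so the values of these genes in that contrast are given as a description with no test. All 10 passed the filter on low counts in the fits of both days.

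RNA was sequenced from 18 libraries of sorted CD45.2+ bone marrow cells of C57BL/6 mice, labelled iLS, a term that the labels do not spell out. The 6 groups of 3 libraries were control cells (called mock in the day 6 descriptions), cells with the BRD9-NUTM1 fusion (BN1) and cells with the AFF1-NUTM1 fusion (AFFN1), each on day 6 and on day 14. BRD9-NUTM1 and AFF1-NUTM1 join a chromatin or elongation factor gene to NUTM1, the gene rearranged in a class of leukemia. All groups carry the CD45.2 allele. The labels do not say how a fusion was brought into the cells, how old the mice were, or whether the libraries of a group came from separate cultures or animals, so p-values measure only the spread between these libraries. The sample descriptions follow another naming scheme on each day, so day and experiment cannot be told apart.

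A fatty acid is first joined to coenzyme A, then passed into the mitochondrion on carnitine, and then shortened in repeated rounds of dehydrogenation, hydration, a second dehydrogenation and thiolysis. The first dehydrogenation is made by enzymes sorted by chain length, and the later steps for long chains by the mitochondrial trifunctional protein. Unsaturated fatty acids also need isomerases that move a double bond to where the chain can be cut. In blood-forming cells the pathway is known as one of the fuels of mitochondrial respiration.

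Acsf2 lies on chromosome 11 (mm10, chr11:94557102-94601871, minus strand) and Eci2 on chromosome 13 (mm10, chr13:34977748-35027096, minus strand), both as protein-coding genes of GENCODE M21. Acsf2 encodes a mitochondrial acyl-CoA synthetase for medium chains, and Eci2 an enoyl-CoA delta isomerase of mitochondria and peroxisomes. The 250 bases before the RefSeq start of each (GRCm38.p6, the same assembly as mm10) are shown because these 2 genes differ most between the groups; they are read 5′ to 3′ on the strand of the gene, and capitals mark matches on either strand to GGGCGG, the core of the GC box, or CCAAT.
Acsf2, chr11:94601787-94602036, minus strand: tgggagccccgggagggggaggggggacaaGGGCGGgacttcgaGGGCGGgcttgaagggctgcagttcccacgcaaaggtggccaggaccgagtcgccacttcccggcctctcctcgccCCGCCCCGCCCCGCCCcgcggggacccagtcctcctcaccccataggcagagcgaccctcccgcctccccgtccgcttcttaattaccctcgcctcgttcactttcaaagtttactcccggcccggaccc
Eci2, chr13:34994145-34994394, minus strand: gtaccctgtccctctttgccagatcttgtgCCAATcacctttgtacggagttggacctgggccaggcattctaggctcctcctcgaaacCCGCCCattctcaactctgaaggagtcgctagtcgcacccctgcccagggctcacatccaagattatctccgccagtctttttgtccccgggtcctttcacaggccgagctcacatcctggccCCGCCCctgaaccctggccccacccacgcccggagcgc
The Acsf2 window held 5 matches to GGGCGG, some of them in an unbroken run, and 22 CpG sites, with a GC content of 70.0%. The Eci2 window held 2 matches to GGGCGG and 1 to CCAAT, and 12 CpG sites, with a GC content of 61.2%. It lies inside the GENCODE interval of Eci2, because the RefSeq and GENCODE starts of this gene differ. The Acsf2 window lies partly inside the GENCODE interval of Acsf2, whose GENCODE start is at 94601871. The median over 32851 windows of the same length was 6 CpG sites, GGGCGG stood in 32.7% of them and CCAAT in 33.8%. Neither window held AGGTCA, the half-site of nuclear receptors such as the PPARs (14.0% of all windows), or CACGTG, the E-box (6.0%), which says only that these letters are not in these bases. All 10 genes had an entry among these windows. Of the other 8 genes, Cpt1a, Acadm and Acadvl had 1 match to AGGTCA each.

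Total counts were 14182531 to 18383447 reads per library. The sum of 8 early B cell markers was 4830 to 12000 reads per 1000000 counted reads (CPM) in every library, and none of the 8 was at 0 in a group. Cd8a and Ncr1 (T and NK cells) had 0 reads in all 18 libraries, and Elane, S100a9, Alas2 and Lum had at most 1 read in a group and Mpo at most 2. Other myeloid and stromal markers were present: Lyz2 averaged 60.9 to 86.9 CPM in the groups of day 6, and Fn1 31.8 CPM in the controls of that day. The sum of the 10 myeloid markers was 49.6 to 153 CPM on day 6 and 16.9 to 74.8 on day 14, and that of the 9 stromal markers 12.6 to 139 and 20.6 to 43.3. For the 6 erythroid markers, Alas2 among them, the sum was 0.28 to 1.09 CPM on day 6 and 1.29 to 13.9 on day 14. The sum of the 9 T and NK markers was 48.2 to 53.6 CPM in BN1 on day 6 against 17.2 to 41.1 in the controls, and that of the 6 dendritic markers 242 to 323 in AFFN1 on day 6 against 148 to 200 in the controls. On day 14 the T and NK sum was 5.97 to 7.92 CPM in the controls, 13.0 to 19.2 in BN1 and 18.3 to 46.1 in AFFN1, and the myeloid sum 16.9 to 37.1, 39.5 to 67.9 and 25.7 to 74.8; the part of these markers in the results was not tested. On day 14, control library 1 and AFFN1 library 1 stood apart from the other 7 libraries on the second principal component (-43.9 and -27.0 against -7.49 to 29.2), and their dendritic sums were 204 and 117 against 20.3 to 50.1 CPM.

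Levels below are CPM after TMM scaling over all 18 libraries. A gene was called where its adjusted p in edgeR's quasi-likelihood test was below 0.05, over all genes of the fit. Bulk RNA cannot tell fewer cells of a type from less RNA per cell.

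Acsf2 was about 48-fold higher in BN1 than in the controls on day 6. It measured 1.90, 1.41 and 1.95 CPM in the 3 control libraries, 83.7, 90.4 and 80.4 CPM in the BN1 libraries and 2.00, 1.42 and 1.48 CPM in the AFFN1 libraries. BN1 stood far above the others with no overlap, and the AFFN1 libraries lay around the controls. The ratio of BN1 to control was 47.7 (95% interval 38.9 to 59.0, exact and for counting error only, from 4634 against 95 reads) and that of BN1 to AFFN1 was 52.2 (42.3 to 65.3, 4634 against 88 reads). Between AFFN1 and control the log2 fold change of Acsf2 was -0.13 ± 0.18 (SE) and was not called. It is a description, since the day 6 controls took part in the choice of Acsf2.

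On day 14 Acsf2 was present in all 3 kinds of cells at middle levels. It measured 12.0, 9.02 and 22.2 CPM in the controls, 6.87, 10.0 and 22.5 CPM in BN1 and 1.15, 17.8 and 23.4 CPM in AFFN1. The groups overlapped, and AFFN1 library 1, with 19 reads, was the lowest of the 9. The standard error of each day 14 difference was 0.90 on the log2 scale, more than the differences of -0.16 (BN1 against control), -0.05 (AFFN1 against control) and -0.10 (BN1 against AFFN1). These signs turned when single libraries were left out. Leaving out BN1 library 2 gave 0.02 for BN1 against control and 0.05 for BN1 against AFFN1, and leaving out AFFN1 library 1 gave 0.49 for AFFN1 against control. In control cells Acsf2 was higher on day 14 than on day 6 by 3.02 ± 0.77 (log2, SE). This is given without a test, because the day 6 controls took part in the choice of Acsf2.

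Eci2 was almost absent from BN1 on day 6. It measured 21, 22.1 and 24.7 CPM in the controls, 0.0510, 0.0574 and 0.113 CPM in BN1, where the 3 libraries held 4 reads in all, and 17.1, 18.3 and 16.8 CPM in AFFN1. The control level was 311 times that of BN1 (95% interval 121 to 1140, exact and for counting error only, from 1214 against 4 reads), and the AFFN1 level 238 times (92.6 to 875, 944 against 4 reads). The 3 AFFN1 libraries lay below the 3 controls, by -0.39 ± 0.12 (log2, SE), which edgeR did not call and DESeq2 did. Both are descriptions, since the day 6 controls took part in the choice of Eci2.

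On day 14 Eci2 was present in BN1 at 20.1, 23.0 and 22.4 CPM, within the range of the controls at 17.5, 28.8 and 32.2 CPM. AFFN1 was the lowest group, at 8.31, 15.7 and 12.0 CPM, and did not overlap with either of the others. Its difference from the controls was -1.14 ± 0.27 (log2, SE) with an adjusted p of 0.326 (edgeR), and was not called. Without a block, DESeq2 (adjusted p = 0.0221) and the edgeR fit on all 18 libraries (0.0259) did call it. The day 14 descriptions give libraries of the same number a shared code, and with that number as a block the difference was -1.14 ± 0.18 and was called (adjusted p = 0.0247, edgeR). Eci2 was lower in AFFN1 in 3 of 3 such pairs, by log2 ratios of -1.08, -0.88 and -1.43. Without the libraries numbered 2 (adjusted p = 0.0848) or 3 (0.392) the call with the block was lost, and without those numbered 1 it was kept (0.00177). BN1 against AFFN1 was 0.86 ± 0.27 without the block (adjusted p = 0.491) and 0.91 ± 0.18 with it (0.0657), and BN1 against control was -0.28 ± 0.26 (0.584). In control cells Eci2 differed between the days by 0.21 ± 0.21 (log2, SE) and was not called. This difference is a description, since the day 6 controls took part in the choice of Eci2.

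**Figure D1:**
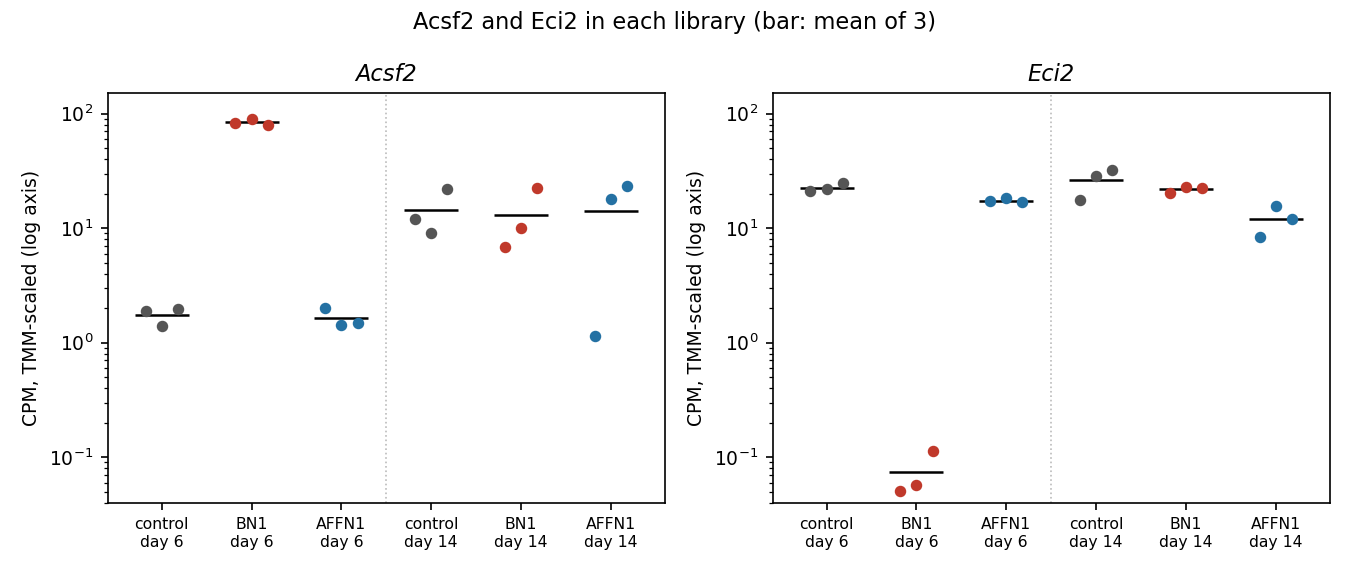
Level of Acsf2 (left) and Eci2 (right) in each of the 18 libraries, in TMM-scaled CPM on a log axis; points are libraries and the black line is the mean of the 3 libraries of a group. On day 6 the BN1 libraries sit at 80.4 to 90.4 CPM for Acsf2 and at 0.0510 to 0.113 CPM for Eci2, and on day 14 the Acsf2 groups overlap.

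Cpt1a (chr19:3322334-3385733), the outer carnitine palmitoyltransferase and the step at which entry is known to be controlled, measured 72.0 to 118 CPM in the controls, 67.4 to 104 in BN1 and 72.1 to 87.2 in AFFN1 on day 6. On day 14 it measured 54.1, 132 and 110 CPM in the controls, 131, 113 and 130 in BN1 and 61.7, 133 and 106 in AFFN1. The low values were those of control library 1 and AFFN1 library 1, whose dendritic marker sums are given above, and their part in these values was not tested. Cpt1a was called in none of the 8 comparisons outside the contrast that chose the set.

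Cpt2 (chr4:107903981-107923610), the inner transferase that releases the acyl chain from carnitine, measured 16.3, 16.0 and 13.8 CPM in the controls of day 6, 13.3, 13.7 and 11.9 in BN1 and 13.3, 12.9 and 12.7 in AFFN1. On day 14 it measured 16.4, 26.9 and 22.5 CPM in the controls, 13.8, 18.9 and 13.7 in BN1 and 9.46, 15.1 and 12.1 in AFFN1. AFFN1 lay below all controls, while BN1 overlapped with them. Without the block neither difference was called (-0.52 ± 0.24, adjusted p = 0.256, for BN1, and -0.86 ± 0.24, 0.510, for AFFN1). With it both were, at -0.51 ± 0.14 (adjusted p = 0.0483) for BN1 and -0.86 ± 0.15 (0.0331) for AFFN1 in edgeR. Cpt2 was lower than in the paired control in 3 of 3 pairs for each fusion, by log2 ratios of -0.25, -0.51 and -0.71 for BN1 and -0.79, -0.84 and -0.90 for AFFN1. The BN1 call with the block was lost without the libraries of any 1 number (adjusted p of 0.0660 to 0.246), and the AFFN1 call without those numbered 2 (0.246) or 3 (0.378).

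The 3 acyl-CoA dehydrogenases carry out the first dehydrogenation of each round, on medium (Acadm, chr3:153922357-153944632), long (Acadl, chr1:66830839-66863277) and very long chains (Acadvl, chr11:70010183-70015411). Acadl was the highest of the 10 genes in CPM per kilobase of exon in all 6 groups, from 36.6 ± 4.99 (SD, n = 3) in BN1 on day 14 to 144 ± 18.2 in AFFN1 on day 6. That rank depends on the annotated exon length, as given below. In control cells it was lower on day 14 than on day 6 by 1.52 ± 0.22 (log2, SE; adjusted p = 5.86e-05, edgeR). Its 9 libraries of day 6 measured 225 to 311 CPM (median 251) and its 9 libraries of day 14 measured 64.8 to 152 CPM (median 84.3), with no overlap whatever the fusion.

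Acadvl showed the same order of days. Its 9 libraries of day 6 measured 32 to 38.4 CPM, and those of day 14 measured 11.3 to 27.5 CPM. The control difference was -0.82 ± 0.28 (adjusted p = 0.0242, edgeR), and the call was lost without control library 3 of day 6 (0.0697) or library 1 (0.0864) or 2 (0.0896) of day 14. On day 14 the highest library of each group was the one numbered 3, at 27.5, 25.6 and 25.4 CPM.

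On day 6 Acadm measured 39.3, 43.0 and 35.9 CPM in the controls, 31.0, 31.7 and 27.8 in BN1 and 35.2, 36.4 and 40.7 in AFFN1, so that BN1 lay below both other groups without overlap. BN1 against AFFN1 was -0.32 ± 0.10 (log2, SE) with an adjusted p of 0.0689 (edgeR), which was not called. On day 14 it measured 47.3 CPM in control library 1 and 26.1 to 36.8 CPM in the other 8 libraries.

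Hadha (chr5:30118304-30155162) and Hadhb (chr5:30155248-30184593) encode the alpha and beta subunits of the trifunctional protein and point away from each other, their GENCODE starts 86 bases apart. Hadha measured 133 to 149 CPM in the controls, 119 to 136 in BN1 and 123 to 138 in AFFN1 on day 6, and 184 to 222 CPM in the 9 libraries of day 14, with no overlap between the days. In control cells Hadha was higher on day 14 by 0.50 ± 0.10 (adjusted p = 5.26e-04, edgeR), while Hadhb changed by -0.26 ± 0.12 (0.0856) and was not called. The ratio of Hadha to Hadhb reads was 1.67 ± 0.171, 1.82 ± 0.119 and 1.94 ± 0.111 (SD, n = 3) on day 6 (in the order control, BN1, AFFN1), and 2.88 ± 0.575, 3.33 ± 0.222 and 2.76 ± 0.313 on day 14. The lowest ratio of a day 14 control library, 2.39, was above the highest of day 6, 2.05.

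On day 6 Hadhb measured 85.9, 94.1 and 73.5 CPM in the controls, 70.6, 63.7 and 67.3 in AFFN1 and 69.8 to 70.2 in BN1. AFFN1 lay below all controls, and the difference of -0.34 ± 0.10 (log2, SE) was the one call of the 10 genes in that comparison (adjusted p = 0.0434, edgeR). The call was lost without control library 1 (0.115) or 2 (0.131) or AFFN1 library 1 (0.0928), 2 (0.176) or 3 (0.0771), with the replicate block (0.0678) and in the fit on all 18 libraries (0.139). BN1 against AFFN1 was 0.05 ± 0.10 for Hadhb (0.782).

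Eci1 (chr17:24426641-24439348), the mitochondrial isomerase that shares its reaction with Eci2, stayed present in BN1. On day 6 it measured 18.1, 18.3 and 16.6 CPM in the controls, 16.3, 17.8 and 14.4 in BN1 and 19.2, 16.0 and 17.2 in AFFN1, and the groups overlapped. BN1 against AFFN1 was -0.12 ± 0.12 (adjusted p = 0.572, edgeR). On day 14 the BN1 libraries, at 7.17, 8.57 and 8.93 CPM, lay below the controls at 12.2, 8.96 and 15.6 CPM by a narrow margin, and the difference of -0.59 ± 0.27 was not called (0.263 without the block, 0.0939 with it). Control cells had less Eci1 on day 14 than on day 6, by 0.53 ± 0.21 on the log2 scale (adjusted p = 0.0487), a call that was lost without any 1 of the 3 control libraries of day 6 or without library 1 or 2 of day 14 (0.0664 to 0.201), with RLE scaling (0.0539) and with no filter on low counts (0.0680).

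**Figure D2:**
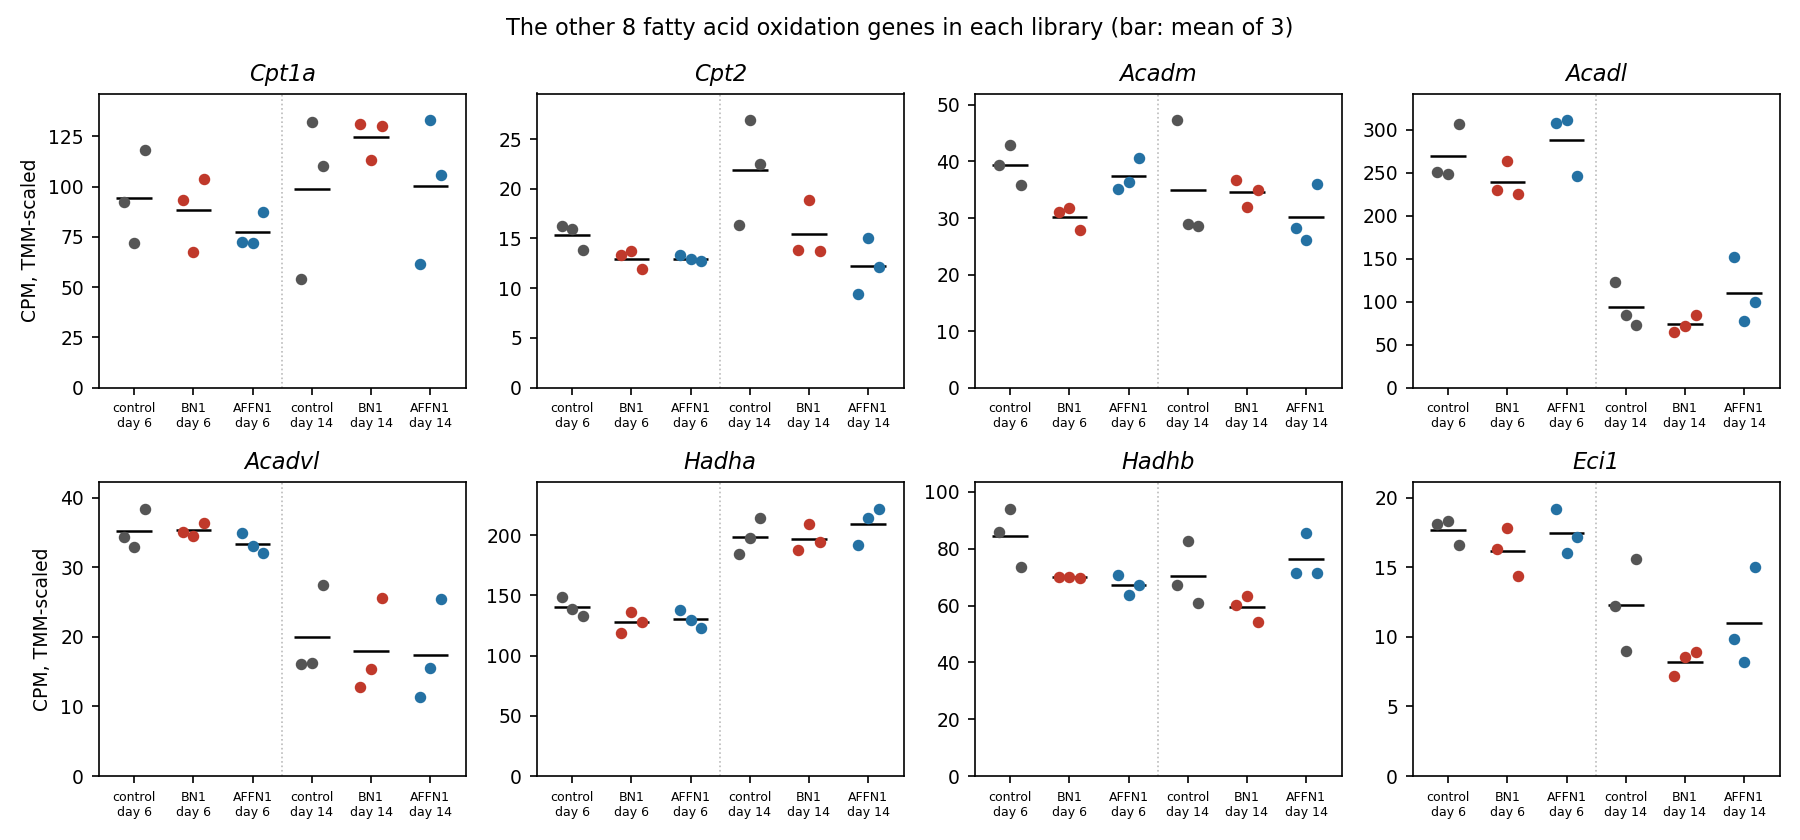
Level of the other 8 genes in each of the 18 libraries, in TMM-scaled CPM on axes that start at 0; points are libraries and the black line is the mean of the 3 libraries of a group. Acadl, Acadvl and Hadha separate the days (Acadl 225 to 311 CPM on day 6 and 64.8 to 152 on day 14), and on day 6 the 3 kinds of cells lie close together.

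Per kilobase of exon, Acadl was highest in every group, and Hadha came next in all but BN1 on day 6. The length is that of all annotated exons of a gene joined (2005 bases for Acadl, 8730 for Hadha). It can exceed the length of the RNA present, and the order depends on it. In plain CPM Hadha was above Acadl on day 14 (184 to 222 against 64.8 to 152) and below it on day 6 (119 to 149 against 225 to 311). In control cells of day 6 the levels ran from Acadl (134 ± 16.6 CPM per kb, SD, n = 3) through Hadha (16.0 ± 0.922), Acadvl (13.1 ± 1.07), Hadhb (12.8 ± 1.58), Cpt1a (12.3 ± 2.99), Acadm (10.1 ± 0.909), Eci1 (8.32 ± 0.438), Cpt2 (6.43 ± 0.586) and Eci2 (4.08 ± 0.342) to Acsf2 (0.512 ± 0.0868). The neighbours from Acadvl to Cpt1a in that order lay within their SD of each other. In BN1 on day 6 Acsf2 was the second highest at 24.7 ± 1.49 CPM per kb, and Eci2 the lowest at 0.0133 ± 0.00620. In control cells of day 14 Acsf2 (4.20 ± 2.02) and Eci2 (4.73 ± 1.39) were the 2 lowest and lay within their SD of each other.

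Counted over the set, 3 of the 10 genes had an adjusted p below 0.05 for BN1 against control on day 6 (Acsf2, Eci2 and Acadm), where 17.4% of 12068 genes did; this contrast chose the set. Acadm was not below it without control library 1 (0.0690) or 2 (0.0820), without BN1 library 1 (0.0596) or 3 (0.0684), or in the fit on all 18 libraries (0.190). The other 8 genes differed there by -0.40 to -0.01 on the log2 scale. For AFFN1 against control on day 6, 1 of 10 was called, where 12.7% of all genes were, and the median log2 fold change was -0.12 over the set and -0.02 over all genes. For BN1 against AFFN1 on day 6, 11.2% of all genes were called, and of the 8 genes other than Acsf2 and Eci2 none was, with log2 fold changes of -0.32 to 0.18 (edgeR; of the 10 genes, 4 had an unadjusted p below 0.05 and DESeq2 called 2, Acsf2 and Eci2 included). AFFN1 and BN1 are set against the same control libraries, so their differences from control share an error.

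On day 14 without the block, edgeR called none of the 10 genes in any of the 3 comparisons, and hardly any gene at all, with 0.0257% of 11657 genes for BN1 against control, 0.0429% for AFFN1 against control and 0% for BN1 against AFFN1. At an unadjusted p below 0.05 the set had 0, 2 and 2 genes and all genes 2351, 721 and 992 in these comparisons, and DESeq2 called 0, 1 and 0 of the set. With the block the shares of all genes were 11.6%, 0.558% and 0.18%, and 1 (Cpt2), 2 (Cpt2 and Eci2) and 0 of the 10 genes were called. In control cells 6 of 10 genes differed between the days, 3 higher on day 14 (Acsf2, Cpt2 and Hadha) and 3 lower (Acadl, Acadvl and Eci1), where 43.9% of 12567 genes were called. Acsf2 counts there as a description only, since the day 6 controls took part in its choice. The Cpt2 rise of 0.51 ± 0.19 (adjusted p = 0.0367) lost its call without any 1 of the 3 libraries of day 6 or without library 2 or 3 of day 14 (0.0582 to 0.187). The sum of early B cell markers was 4830 to 6320 CPM on day 6 and 6490 to 12000 on day 14, and its part in the day differences was not tested.

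The difference that a fusion made was also compared between the days. For BN1, 2.97% of 12567 genes were called for such a change, among them Acsf2 and Eci2, whose values rest on the day 6 libraries that chose them; of the other 8 genes none was called, with changes of -0.44 to 0.43 on the log2 scale. For AFFN1 1.46% of genes were called and none of the 10 (edgeR; 3 had an unadjusted p below 0.05, and DESeq2 called 0).

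**Figure D3:**
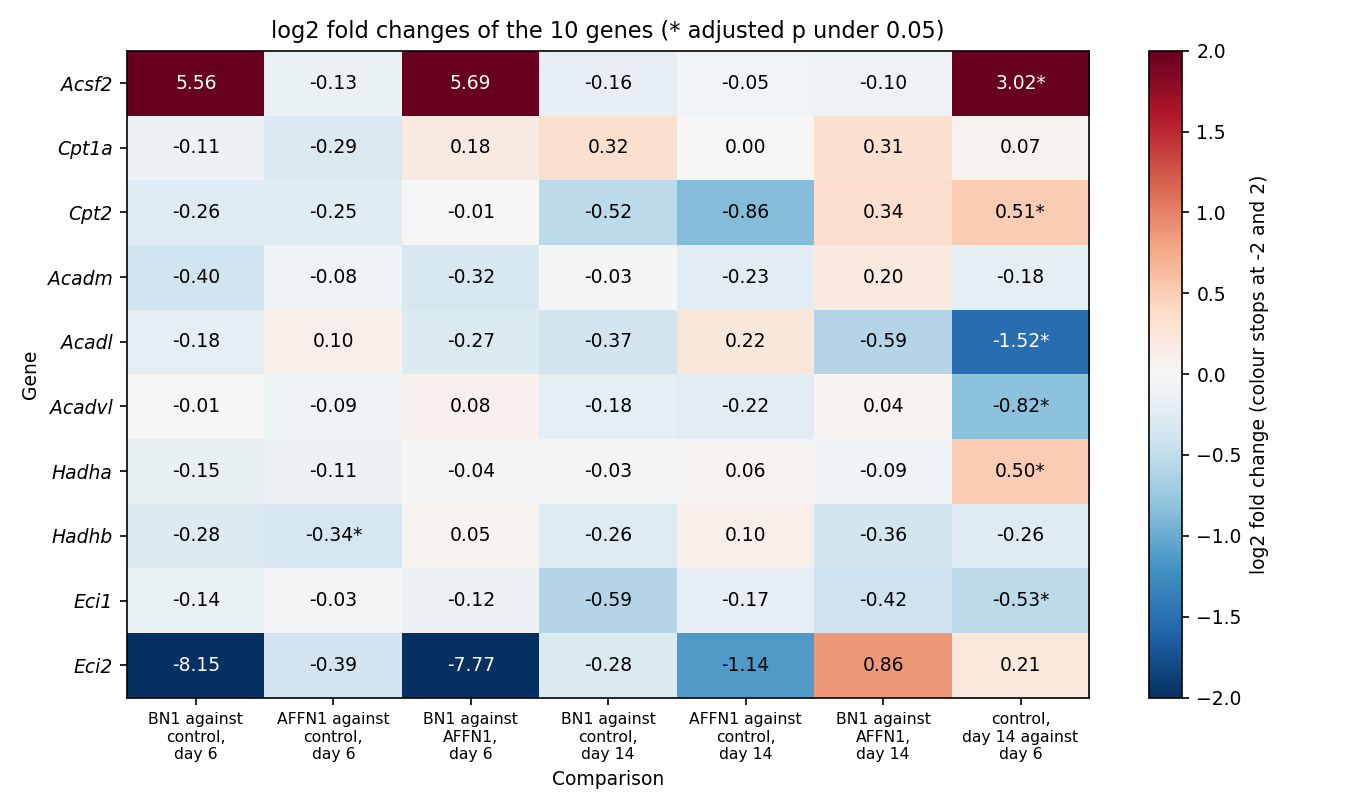
Fitted log2 fold change of each of the 10 genes (rows) in 7 comparisons (columns), with the value in each cell and colours that stop at -2 and 2. An asterisk marks an adjusted p below 0.05, left out where the day 6 BN1 libraries chose the gene or the contrast. The asterisk of Acsf2 between the days in control cells is a description, since the day 6 controls took part in its choice. Beside Acsf2 (5.56) and Eci2 (-8.15), the BN1 column of day 6 holds values of -0.40 to -0.01.

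Beyond the set, 98 other genes of fatty acid handling in 7 lists were measured, of which 77 were tested on day 6. For AFFN1 against control on day 6, 16 of 77 were called (20.8%, against 12.7% of all genes), 7 higher and 9 lower, with a median log2 fold change of -0.05 against -0.02 over all genes. For BN1 against AFFN1 on day 6, 10 of 77 were called (13%, against 11.2% of all genes), 2 higher and 8 lower. For BN1 against control, the contrast that chose the set, 17 of 77 had an adjusted p below 0.05 (22.1%, against 17.4% of all genes), 4 higher and 13 lower. The list of lipolysis and lipid droplet genes had 3 of 8 below that threshold for BN1 (0 higher, 3 lower) and 3 of 8 for AFFN1 (1 higher, 2 lower), the list of uptake and activation 5 of 14 (all lower) and 5 of 14 (1 higher, 4 lower), the carnitine shuttle 2 of 6 (both lower) and 2 of 6 (1 higher, 1 lower), the 20 further mitochondrial enzymes 4 (2 higher, 2 lower) and 4 (2 higher, 2 lower), and the 12 regulators 0 and 1. The list of peroxisomal oxidation had 3 of 13 for BN1 (2 higher, 1 lower) and 1 of 13 for AFFN1, and the odd-chain propionyl-CoA branch 0 of 4 for both. The peroxisomal gene of AFFN1 was Decr2, a reductase of unsaturated acyl-CoA that was named after its values were seen, at 1.28 to 1.74 CPM in the controls, 3.42 to 3.94 in AFFN1 and 4.54 to 4.88 in BN1, with 1.35 ± 0.20 for AFFN1 against control (adjusted p = 0.00199, edgeR).

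Among the genes that make or use carnitine, Tmlhe, the first enzyme of carnitine synthesis, was nearly absent from BN1 on day 6. It measured 12.5, 11.5 and 15.9 CPM in the controls, 0.612, 0.0574 and 0.284 in BN1 and 11.1, 11.3 and 9.36 in AFFN1. BN1 lay far below both groups, and against AFFN1 the difference was -5.00 ± 0.39 (log2, SE; adjusted p = 3.66e-05, edgeR). On day 14 the 3 libraries of a group held 3 reads (control), 4 (BN1) and 2 (AFFN1), so Tmlhe was close to undetected in every group. In control cells its level on day 6 was 216 times that on day 14 (95% interval 73.6 to 1050, exact and for counting error only, 721 against 3 reads).

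Slc25a20, which carries acylcarnitine across the inner membrane, was lower with both fusions on day 6. It measured 23.3, 21.7 and 22.0 CPM in the controls, 11.1, 11.9 and 12.9 in BN1 and 12.4, 12.1 and 15.7 in AFFN1. The fusion groups overlapped with each other and not with the controls, and AFFN1 against control was -0.74 ± 0.12 (adjusted p = 0.00335, edgeR). Crat, which joins short chains to carnitine, went the other way in AFFN1, by 0.80 ± 0.14 against control (adjusted p = 0.00427). BN1 had less Crat than AFFN1 by 0.52 ± 0.14 on the log2 scale (0.0340), a call lost without BN1 library 1 or 3 or AFFN1 library 1 or 2 (0.102 to 0.135), with the replicate block (0.0632) and in the fit on all 18 libraries (0.248).

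Plin2, which coats lipid droplets, was lowest in BN1 on day 6. It measured 28.8, 22.7 and 34.8 CPM in the controls, 1.73, 0.574 and 2.61 in BN1 and 18.9, 17.4 and 20.1 in AFFN1. The 3 groups did not overlap, with AFFN1 between the others. BN1 against AFFN1 was -3.52 ± 0.35 (log2, SE; adjusted p = 2.07e-04, edgeR). On day 14 it measured 28.7 ± 4.37 CPM in BN1, 19.1 ± 7.76 in the controls and 20.8 ± 3.21 in AFFN1 (SD, n = 3).

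Mgll, the lipase of monoglycerides, was low with both fusions on day 6, at 6.23 to 9.41 CPM in the controls, 0.681 to 1.84 in BN1 and 1.12 to 2.57 in AFFN1. AFFN1 against control was -2.06 ± 0.36 (adjusted p = 0.00445, edgeR). Slc27a1, a fatty acid transport protein, measured 13.6 to 21.5 CPM in the controls, 5.28 to 5.84 in BN1 and 5.80 to 6.84 in AFFN1, and AFFN1 against control was -1.48 ± 0.17 (4.65e-04). Hilpda, an inhibitor of the lipase ATGL, was lowest in AFFN1, at 12.7 to 15.3 CPM against 22.7 to 24.6 in BN1 and 30.1 to 51.7 in the controls. AFFN1 against control was -1.50 ± 0.17 for Hilpda (4.38e-04), and BN1 against AFFN1 was 0.73 ± 0.17 (0.0214), a call lost without any 1 BN1 library or AFFN1 library 1 or 2 (0.0519 to 0.0943) and in the fit on all 18 libraries (0.0851).

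Acsl1, a long-chain acyl-CoA synthetase, measured 138 ± 29.9 CPM in the controls, 71.9 ± 8.52 in BN1 and 82.5 ± 22.0 in AFFN1 on day 6 (SD, n = 3). AFFN1 against control was -0.75 ± 0.20 (adjusted p = 0.0363, edgeR), a call lost without control library 1 (0.0917) or 2 (0.118) or AFFN1 library 1 (0.151) or 2 (0.141), with no filter on low counts (0.0677), with the replicate block (0.0575) and in the fit on all 18 libraries (0.118). Ppard, a nuclear receptor for fatty acids, was lower in BN1 than in AFFN1 by 0.58 ± 0.12 on the log2 scale (0.00933). Acsbg1, another acyl-CoA synthetase, was lower there by 0.42 ± 0.10 (0.0224), a call lost without BN1 library 1 or 2 or any 1 AFFN1 library (0.0503 to 0.0862) and in the fit on all 18 libraries (0.361).

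**Figure D4:**
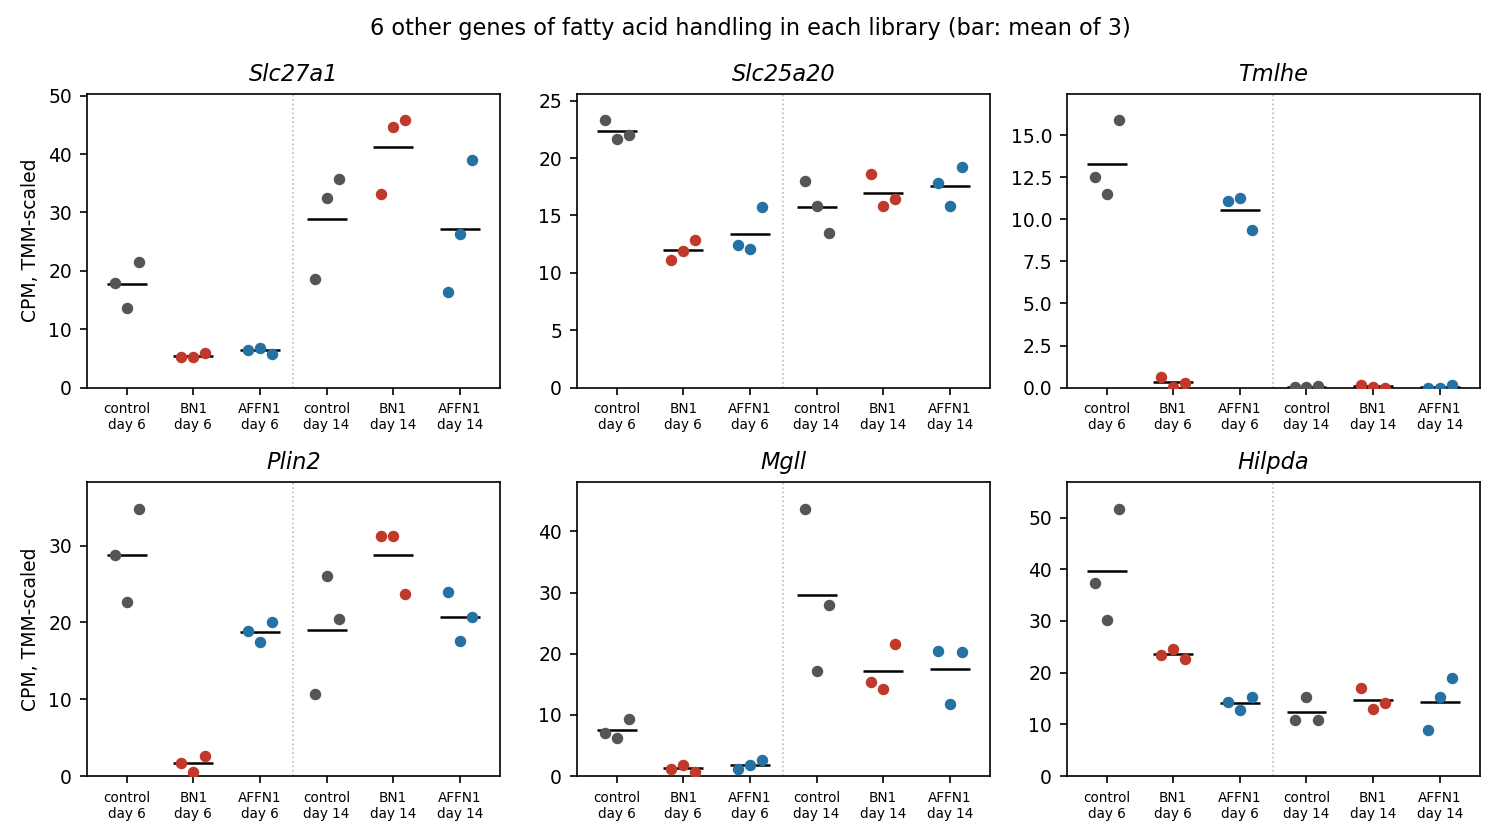
Level of 6 other genes of fatty acid handling in each of the 18 libraries, in TMM-scaled CPM on axes that start at 0; points are libraries and the black line is the mean of the 3 libraries of a group. On day 6 Tmlhe and Plin2 are low in BN1 (at most 0.612 and 2.61 CPM), Slc27a1, Slc25a20 and Mgll are low with both fusions, and Tmlhe is close to 0 in all groups on day 14.

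On day 14 none of the 75 tested genes of these lists was called in any of the 3 comparisons without the block (edgeR, fit of that day). With it 3 of 75 were called for BN1 against control (4%, against 11.6% of all genes) and 1 of 75 for AFFN1 against control (1.33%, against 0.558%). Fabp5, a fatty acid binding protein, was lower in BN1 by 1.49 ± 0.16 on the log2 scale (adjusted p = 0.00235), Acat1, a mitochondrial thiolase, was lower by 0.50 ± 0.11 (0.0222), and Rxra, a partner of the PPARs, was higher by 0.79 ± 0.19 (0.0314). Acss1, the mitochondrial acetyl-CoA synthetase, was lower in AFFN1 by 0.69 ± 0.11 (0.0258). Fabp5 kept its call without the libraries of any 1 number (0.000152 to 0.0219). Acat1 and Rxra lost theirs each time (0.0569 to 0.140 and 0.100 to 0.173), and Acss1 without the libraries numbered 2 (0.239) or 3 (0.309). Without the block, DESeq2 also called Fabp5 (adjusted p = 0.00582) and Rxra (0.0404). The edgeR fit on all 18 libraries called Fabp5 (0.0355), Rxra (0.0349) and Acat1 (0.0347). Acss1 was called by neither. In control cells 45 of 78 genes differed between the days (57.7%, against 43.9% of all genes), 23 higher and 22 lower on day 14. Among them were the lipases Pnpla2 (1.48 ± 0.11, adjusted p = 8.01e-08, edgeR), Lipe (1.60 ± 0.31, 5.81e-04) and Mgll (1.97 ± 0.36, 4.58e-04), and Angptl4, an inhibitor of lipoprotein lipase (1.56 ± 0.26, 1.56e-04), all higher on day 14, while Hilpda was lower (-1.69 ± 0.24, 3.86e-05).

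The genes next to Acsf2 and Eci2 that had enough reads to be tested did not share their large differences. Of the 3 protein-coding genes on each side of Acsf2, Rsad1, Lrrc59 and Eme1 were tested on day 6, and BN1 differed from control by 0.04 ± 0.17, -0.40 ± 0.17 and -0.01 ± 0.14 (log2, SE), none with an adjusted p below 0.05. Epn3, Mycbpap and Chad had at most 2 reads in a library of day 6 and were not tested. Chad lies inside Acsf2 on the opposite strand (chr11:94565047-94569127) and held 4 reads in all 18 libraries together. Around Eci2, the nearest genes on one side, Eci3, Fam217a and 4933417A18Rik, had 0 reads in the day 6 libraries. A loss in BN1 could therefore not be seen in them. Eci3, a close copy of Eci2, had 0 reads in all 18 libraries. On the other side lies Cdyl, with its start 632.7 kb from the GENCODE start of Eci2, which is not the RefSeq start used for the window above. Cdyl was higher in BN1 than in AFFN1 by 0.43 ± 0.10 (adjusted p = 0.0231, edgeR), at 18.1 to 19.5 CPM against 13.5 to 14.6 CPM, with the controls at 13.9 to 16.2 CPM. That call was lost without BN1 library 2 or 3 or any 1 AFFN1 library (0.0575 to 0.0992) and in the fit on all 18 libraries (0.0659). Against control, the contrast that chose the set, Cdyl was higher in BN1 by 0.35 ± 0.10 (adjusted p = 0.044, edgeR). That value was not below 0.05 without control library 1 or 3 or any 1 BN1 library (0.056 to 0.129). The same held with no filter on low counts (0.0688), the replicate block (0.0726) and the fit on all 18 libraries (0.108). Rpp40, 879.3 kb away, differed by 0.06 ± 0.30 in BN1 against control and by 0.24 ± 0.30 (0.678) in BN1 against AFFN1. Ppp1r3g was not tested. The antisense gene Gm16984, which overlaps Eci2 (chr13:34963982-34990452), held 1 read in all; no source used here gives the strand setting of the counting.

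**Figure D5:**
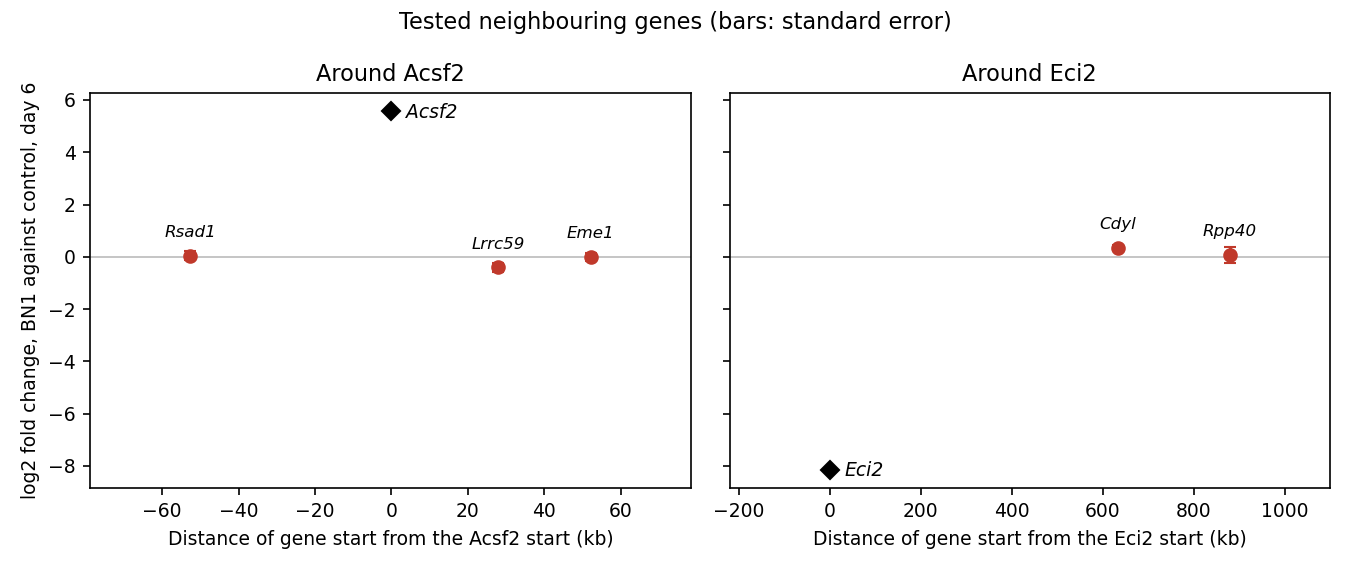
Fitted log2 fold change for BN1 against control on day 6 (y axis, bars are the standard error) of the tested genes next to Acsf2 (left) and Eci2 (right), against the distance of their GENCODE start from that of the named gene in kb (x axis). The 5 neighbours lie between -0.40 and 0.35, and the black diamonds are Acsf2 (5.56) and Eci2 (-8.15).

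The genes whose levels were most like those of Acsf2 and Eci2 were sought among 12566 others, by Pearson's r of log2(CPM + 1) over the 18 libraries. The libraries share groups and days, so r is a description. Genes picked by r follow the day 6 BN1 values that chose Acsf2 and Eci2, so their like pattern is no separate result. For Acsf2 they included Zfp827 (r = 0.928) and Fgd1 (0.872). Zfp827, a zinc finger protein gene, measured 9.33 ± 0.913 CPM in BN1 on day 6 and 0.579 ± 0.0825 in the controls (SD, n = 3), and Fgd1 2.07 ± 0.378 and 0.210 ± 0.0547. For Eci2 they were Nxt2 (r = 0.969), Dynlt3 (0.969) and Tspan2 (0.952), each low in BN1 on day 6 and present in BN1 on day 14. Nxt2 measured 0 to 0.102 CPM in BN1 on day 6, 6.66 to 8.01 in the controls and 5.32 to 8.31 in BN1 on day 14. Tspan2, a tetraspanin gene, measured 1.42 to 5.81 CPM, 120 to 170 CPM and 124 to 147 CPM in the same groups, and Dynlt3, a dynein light chain gene, 0.549 ± 0.416, 25.3 ± 5.62 and 15.5 ± 3.99 CPM.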

How the data were processed

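Poly(A) RNA was sequenced with a strand-keeping kit, per the labels' protocols. The authors deposited RSEM expected counts per gene; STAR, RSEM, DESeq2 and mm10 are named in the submitters' processing notes, and no source used here gives their versions, the annotation or the strand setting. In each library 1.74 to 2.12% of the values were not whole, none of them in the 10 genes, and counts were rounded. Of the gene identifiers, 99.6% were found in GENCODE M21, which gave coordinates and exon lengths; promoter windows came from RefSeq.

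Genes were filtered with filterByExpr, scaled by TMM and tested by robust quasi-likelihood in edgeR 4.0.16 (R 4.3.3), with Benjamini-Hochberg adjustment over all genes of the fit. Comparisons within a day used the 9 libraries of that day, and comparisons of days all 18. SE is the log2 fold change over the root of F. The fit was also run on counts simulated with its own fitted dispersions, which checks the code and not whether the model suits these data. On day 14, deviations from the group means correlated at 0.316 to 0.682 between libraries of the same number, which share a code in the descriptions. Between others they correlated at -0.554 to 0.0405. Day 14 fits with the number as a block are therefore given beside those without it. Calls on both days come from the fit without the block unless the block is named. On day 6 the same-number range was -0.415 to 0.385, and the block was an alternative only.

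The 10 genes and the lists were chosen with earlier results of these data known. Other genes were named by rule: per comparison, up to 6 called list genes of largest change with non-overlapping groups, the higher at 5 CPM or more; 3 protein-coding neighbours on each side of Acsf2 and Eci2; overlapping genes; the 3 genes most like each, of which 1 is not reported here; and Eci3. Genes called on day 14 with the block, but not in edgeR's fit of that day without it, were named after their values were seen. Alternatives were RLE scaling, no filter, DESeq2 1.42.0, the block, a fit on all 18 libraries and leaving out libraries; leaving out all libraries of 1 number was added after seeing the data.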

Additional observations from a re-analysis of the deposited data

Results flagged for a closer look

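The difference that BN1 made to Acsf2 and Eci2 was not the same on the 2 days. On the log2 scale it changed by -5.71 from day 6 to day 14 for Acsf2 and by 7.87 for Eci2, given without a test because the day 6 libraries chose these genes.

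Among the other genes of fatty acid handling, the BN1 difference changed by 4.72 for Plin2 (adjusted p = 3.83e-05 in edgeR), by 2.20 for Slc27a1 (0.00373), by -1.11 for Decr1 (0.00809), a reductase for unsaturated chains, and by 1.00 for Slc25a20 (0.00659). Decr1 measured 11.3 ± 0.322 CPM in BN1 and 6.25 ± 0.488 in the controls on day 6, and 6.18 ± 1.15 and 7.40 ± 0.946 on day 14 (SD, n = 3). For Tmlhe the fitted change of 5.68 (0.0379) rests on 3 and 4 reads in the day 14 groups, depends on how such low counts are fitted and is no measure of size. Its call was lost with the replicate block (0.0581) and without control library 1 or 3 or BN1 library 3 of day 6, any 1 control library of day 14, or BN1 library 1 or 2 of day 14 (0.0567 to 0.515).

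The AFFN1 difference changed by 1.71 for Hilpda (adjusted p = 0.0112 in edgeR) and by 0.89 for Slc25a20 (0.0247); the latter call was lost without control library 1 or 3 or AFFN1 library 1 or 2 of day 6, or control library 2 or 3 or AFFN1 library 3 of day 14 (0.0509 to 0.0936). Both fusions are compared with the same controls, and day and experiment cannot be told apart.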

How the results depend on the processing

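The number of the 10 genes called changed in 6 comparisons, in 3 of them by more than 1.5 times. For AFFN1 against control on day 6 it was 1, and 2 by DESeq2, 0 with the replicate block, 0 in the fit on all 18 libraries and 0 to 2 with libraries left out. For AFFN1 against control on day 14 it was 0, and 1 by DESeq2, 2 with the replicate block, 1 in the fit on all 18 libraries and 0 to 2 with libraries left out. For BN1 against control on day 14 it was 0, and 1 with the replicate block. For BN1 against control on day 6 it was 3, and 4 by DESeq2, 2 in the fit on all 18 libraries and 2 to 4 with libraries left out. For BN1 against AFFN1 on day 6 it was 2, and 3 without the libraries numbered 3. For control cells of day 14 against day 6 it was 6, and 5 with RLE scaling or no filter on low counts, 7 with the block and 4 to 5 with libraries left out. The block turned no other call of the 10 genes within a day; between the days it added Hadhb in control cells (-0.27, adjusted p = 0.03 in edgeR). Fold changes were recomputed for Acsf2 and Eci2 in every comparison and for other genes where they were called, and of these Acsf2 was the one that changed sign, where it was not called. With 1 library left out its log2 fold change ran from -0.28 to -0.03 (AFFN1 against control, day 6), -0.78 to 0.32 (BN1 against control, day 14), -0.61 to 0.49 (AFFN1 against control, day 14), -0.73 to 0.47 (BN1 against AFFN1, day 14) and -0.49 to 0.64 (change of the AFFN1 difference between the days), and the replicate block gave 0.07 and -0.21 for the last 2. With all libraries of 1 number left out, the first 4 ran from -0.24 to 0.02, -0.30 to 0.03, -0.48 to 0.38 and -0.34 to 0.25, and on day 14 with the block as well from -0.48 to 0.05, -1.22 to 0.50 and -0.45 to 0.74, with 0.21 for BN1 against AFFN1 without the libraries numbered 3. Over all genes edgeR called 3, 5 and 0 on day 14 (BN1 and AFFN1 against control, BN1 against AFFN1), 1348, 65 and 21 with the block, and DESeq2 737, 76 and 91; for the change of the BN1 and AFFN1 differences between the days it called 373 and 183, and DESeq2 605 and 342. Of the values of single genes under an alternative, 764 were counted as keeping direction and side of the threshold, 113 lost a call, 21 gained one and 24 turned sign. The 764 include the correlations with Acsf2 and Eci2 under RLE scaling, which have no call to lose. They also include Acsf2 and Eci2 in the contrasts that chose them. Without the libraries of day 6 numbered 1, AFFN1 against control was no longer called for Mgll (0.121), Crat (0.0956), Slc25a20 (0.129) and Decr2 (0.0512), nor BN1 against AFFN1 for Ppard (0.0796), and without those numbered 2 not for Crat (0.0772), Slc25a20 (0.0809), Decr2 (0.0541) and Ppard (0.0948); these adjusted p-values are from edgeR. The cause of these shifts was not tested. Eci2 in BN1 on day 6 rests on 4 reads, so its ratio has a wide interval, and Tmlhe on day 14 was at the limit of detection.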
